A study of Mus musculus with 10 samples.

Results

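The antigen presentation genes examined here were H2-Aa, H2-Ab1, H2-Eb1, Cd74, Ciita, Nlrc5, B2m, Tap1, Cd83 and Cd86. They were followed through their open chromatin regions (OCRs) in group 2 innate lymphoid cells (ILC2s), the tissue-resident lymphocytes that make type 2 cytokines. An OCR was a member when its centre lay inside one of the 10 genes or when its nearest RefSeq transcription start site (TSS) belonged to one. This rule took 35 of the 50039 regions in the count table. There were 8 regions at Cd83, 6 at H2-Eb1, 4 at H2-Aa, 4 at Cd86, 3 at H2-Ab1, 3 at B2m, 2 at Cd74, 2 at Nlrc5, 2 at Tap1 and 1 at Ciita. All 35 held reads and were tested, and 10 of them were promoter regions, whose centre lay no more than 1000 bp before or 100 bp after a TSS. Neither Ciita nor Nlrc5 had a promoter region, and both H2-Eb1 and Cd86 had 2. A region is named below by its gene and the distance of its centre from the TSS. The name follows position alone, and a link between a region and its gene was not tested. Regions of 1 gene share its locus and are not independent of each other.

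ILC2s came from lung, pancreas, bone marrow (BM), small intestine (SI) and large intestine (LI) of wild-type male C57BL/6 mice of 6 weeks, with 2 libraries per tissue and 50000 sorted cells per library. No treatment or engineered allele was applied in any group. Cells of several mice were pooled for each library, so the spread between the 2 libraries of a tissue is a spread between pools. The gate differed between tissues. BM cells were gated Lin-ST2+CD25+, those of LI, lung and pancreas were in addition CD45+CD127+, and SI cells were gated without ST2 and CD25 as Lin-CD45+CD127+KLRG1+ and Thy1 low, so that gate and tissue cannot be told apart for SI or BM. Lin- means no staining for CD3, B220, CD11b, FcεRI or CD11c, a gate directed against T cells, B cells and myeloid cells, dendritic cells included. The assay was ATAC-seq, in which a transposase inserts adapters into accessible DNA, and the value of a region is its read count.

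Antigen-presenting cells load peptides onto 2 kinds of major histocompatibility complex (MHC) molecule. H2-Aa, H2-Ab1 and H2-Eb1 encode chains of the class II molecules I-A and I-E, Cd74 encodes the invariant chain that guards the class II groove, and Ciita encodes the coactivator that class II transcription depends on. B2m encodes the light chain shared by class I molecules, Tap1 encodes a subunit of the transporter that brings peptides to them, and Nlrc5 encodes the coactivator of class I genes. Cd83 stabilises class II and CD86 on the cell surface, and Cd86 encodes a costimulatory ligand for CD28 on T cells. ILC2s are known to carry class II and costimulatory molecules at low levels and to exchange signals with CD4 T cells through them.

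Class II and B2m promoters are known for a shared set of boxes, X1, X2 and Y, bound by RFX, CREB family factors and NF-Y, on which CIITA and NLRC5 assemble. The upstream sequences of 3 member promoters are shown because these boxes sit inside regions whose counts are reported below. RefSeq windows were found for B2m, Tap1, H2-Aa and H2-Eb1, which is 4 of the 10 genes. H2-Ab1, Cd74, Ciita, Nlrc5, Cd83 and Cd86 had no entry in the promoter table. Each line gives the 250 bases before the TSS on the gene's strand in GRCm38 (mm10), 5′ to 3′. Capitals mark the stretch from the X1 core (GCAAC, or AGCAAC in H2-Eb1) to the Y core (ATTGG), and in B2m from the X2 core (TGACG) to the Y core.
B2m, chr2:122147437-122147686, plus strand: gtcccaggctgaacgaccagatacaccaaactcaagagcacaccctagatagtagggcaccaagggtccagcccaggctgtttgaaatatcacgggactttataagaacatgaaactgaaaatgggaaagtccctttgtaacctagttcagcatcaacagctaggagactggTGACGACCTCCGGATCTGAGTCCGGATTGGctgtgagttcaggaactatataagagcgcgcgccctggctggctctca
H2-Aa, chr17:34287824-34288073, minus strand: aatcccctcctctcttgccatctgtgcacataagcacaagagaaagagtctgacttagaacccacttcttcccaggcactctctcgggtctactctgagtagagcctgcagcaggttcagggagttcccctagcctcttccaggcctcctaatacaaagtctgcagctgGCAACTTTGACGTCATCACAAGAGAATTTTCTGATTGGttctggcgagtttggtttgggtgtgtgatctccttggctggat
H2-Eb1, chr17:34305617-34305866, plus strand: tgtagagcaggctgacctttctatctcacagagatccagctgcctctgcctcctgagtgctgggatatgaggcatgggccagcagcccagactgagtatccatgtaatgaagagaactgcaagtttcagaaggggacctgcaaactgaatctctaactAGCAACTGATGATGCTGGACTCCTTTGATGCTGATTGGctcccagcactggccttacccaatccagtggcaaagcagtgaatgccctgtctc

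The capitals run from -78 to -49 relative to the TSS in B2m, from -81 to -44 in H2-Aa and from -92 to -55 in H2-Eb1. The search covered both strands of RefSeq windows of 300 bases, 250 before and 50 after the TSS, and the central 500 bases of every OCR. AGCAAC followed by ATTGG on the same strand with 15 to 40 bases between was found in 0.432% of the 32851 promoter windows and 0.46% of all OCRs, and among the members in the OCRs H2-Eb1 -59 bp and H2-Ab1 -1505 bp. The looser spellings were chosen after the first search. TGACG followed by ATTGG at the same gap was held by 0.813% of promoter windows, 0.735% of all OCRs and 6 of the 35 member OCRs, which were B2m +26 bp, H2-Eb1 -941 bp, H2-Eb1 -4517 bp, H2-Aa -75 bp, H2-Aa -3960 bp and H2-Aa -8360 bp. GCAAC followed by ATTGG was held by 1.24% of windows, 1.18% of OCRs and 3 member OCRs, and TGATG followed by ATTGG by 1.42%, 1.6% and 2. These spellings overlap one another and all contain the Y core, which alone was held by 37.4% of windows, 44.1% of OCRs and 21 of the 35 members. The interferon element GAAANNGAA was found in 8.56% of windows, 14.9% of OCRs and 8 members, and the gamma-activated element TTCNNNGAA in 8.3%, 13.3% and 7. A match describes the letters and was not tested as a binding site.

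Part of this arrangement, an X1 or X2 core before the Y core, also lay in 4 OCRs away from the promoters. It lay in the upstream H2-Eb1 promoter region too. Counts at these regions differed between tissues, and the matched stretches are shown for that reason. H2-Ab1 -1505 bp matched an X1 core and the others an X2 core, and none matched both. Each stretch is whole in capitals from the X box to the Y core, in the direction in which it reads.
H2-Ab1 -1505 bp, chr17:34261685-34261723, minus strand: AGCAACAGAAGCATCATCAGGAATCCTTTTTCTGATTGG
H2-Aa -3960 bp, chr17:34291751-34291779, plus strand: TGACGCCGCCCACACTTGCTCCTCATTGG
H2-Aa -8360 bp, chr17:34296266-34296295, plus strand: TGACGCTTCCTTGCTCTCTATTCCTATTGG
H2-Eb1 -4517 bp, chr17:34301280-34301309, plus strand: TGACGCTGCCTCACCTCCCACCCTCATTGG
H2-Eb1 -941 bp, chr17:34304930-34304959, minus strand: TGACGAAGCAGAATTTAGCCTCTTGATTGG

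The libraries held from 10282987 to 32797872 reads in regions. Values below are in CPM, that is counts scaled to a common library size by TMM, and levels of different regions are compared only in CPM per kb of region. Of the 11 ILC2 marker promoters with a region, 4 had a tissue effect called: Il1rl1, Klrg1, Il2ra and Rora. Gata3, the defining ILC2 transcription factor, lay between 41.8 and 56.6 CPM in the 10 libraries (edgeR adjusted p = 0.785 for a tissue effect). Klrg1, part of the SI gate, lay at 22.4 and 49.7 CPM in SI replicates 1 and 2. It lay at 7.59 and 8.70 in BM and at 26.8 to 55.4 in LI, lung and pancreas (edgeR adjusted p = 3.29e-05). The tissue effect had an edgeR adjusted p of 0.0181 at Il2ra and 0.0231 at Rora. Il1rl1, which encodes ST2 and was part of the gate outside SI, lay at 2.84 and 3.03 CPM in SI, at 5.67 and 7.39 in LI, which was gated on ST2, and at 13.0 to 27.0 CPM in BM, lung and pancreas. The promoters of Ms4a1 and Cd79a, which mark B cells, and of Csf1r, Lyz2 and Siglech, of macrophages and plasmacytoid dendritic cells, had no region, nor had those genes a region anywhere.

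SI replicate 1 stood apart in the promoter sums of the lists of antigen-presenting cells. The B cell list had promoter regions at 3 of 8 genes, whose summed level was 64.4 CPM per kb in SI replicate 1, 30.4 in SI replicate 2 and 16.1 to 36.6 in the other 8 libraries. The dendritic cell list, also with 3 of 8, summed to 69.8 and 37.4 in the SI libraries against 27.1 to 52.5 elsewhere, and the macrophage or monocyte list, with 3 of 8, to 64.9 and 43.8 against 26.6 to 37.4. The gap was wide at some single promoters. Ebf1, a B cell transcription factor, lay at 15.6 and 3.69 CPM in SI replicates 1 and 2. Flt3, a dendritic cell growth factor receptor, lay at 21.7 and 9.82, and Spi1, which encodes PU.1, at 9.29 and 2.19. The gap was narrow at Cd68 (16.5 and 15.4), Cd79b (8.52 and 6.79) and Batf3 (7.94 and 6.55). Zbtb46 (17.7 and 8.43), Cr2 (10.9 and 5.71) and Mertk (9.20 and 5.96) lay between. Over every region at these genes, promoter or not, SI replicate 1 was 1.25, 1.13 and 1.16 times SI replicate 2 for the B cell, dendritic cell and macrophage lists and 0.781 times for the ILC2 list, and the B cell sums of the SI libraries, 948 and 756 CPM per kb, lay within the 751 to 1073 of the other tissues. The T cell and epithelium lists, with 2 of 6 promoters each, summed to 17.4 and 14.4, and to 20.5 and 14.2 CPM per kb in SI replicates 1 and 2, against 8.94 to 19.1 and 9.43 to 21.2 in the other libraries. The part of other cells in the results at SI was not tested, and more cells of a type cannot be told apart from more accessibility per cell. Values without SI replicate 1 are given beside the main results at SI.

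**Figure D1:**
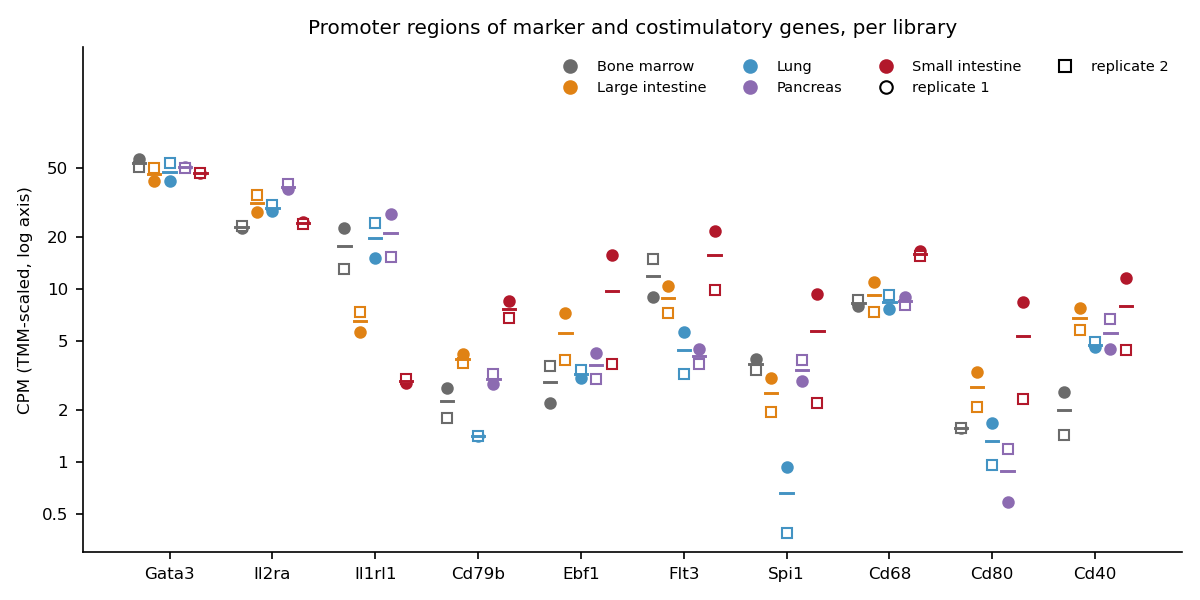
Promoter regions of 3 ILC2 genes (Gata3, Il2ra, Il1rl1), of B cell, dendritic cell and macrophage markers (Cd79b, Ebf1, Flt3, Spi1, Cd68) and of the costimulatory genes Cd80 and Cd40 in TMM-scaled CPM on a log axis; filled circles are replicate 1, open squares replicate 2, bars the mean of the 2. Gata3 was level across tissues, while SI replicate 1 lay above SI replicate 2 at Ebf1 (15.6 against 3.69), Spi1 (9.29 against 2.19) and Cd80 (8.43 against 2.3). The gap between the SI replicates was narrow at Cd68 (16.5 against 15.4) and Cd79b (8.52 against 6.79).

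Accessibility at the antigen presentation genes was highest in SI more often than at other regions. SI had the highest mean CPM at 23 of the 35 regions (65.7%, against 24% of all regions) and the lowest at 0 (20.3% of all). With SI replicate 2 alone, SI was highest at 16 regions (45.7%, against 22.9%) and lowest at 0 (22.8% of all). Pancreas was lowest at 13 regions (37.1%, against 17.9%) and lung at 11 (31.4%, against 19.1%). A tissue effect was called at 21 of the 35 regions by edgeR's quasi-likelihood F test at a Benjamini-Hochberg adjusted p under 0.05, where 44.2% of all 49981 tested regions were called. By class, 5 of the 10 promoter regions were called (30.9% of all promoter regions) and 16 of the 25 others (47.3% of all other regions).

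**Figure D2:**
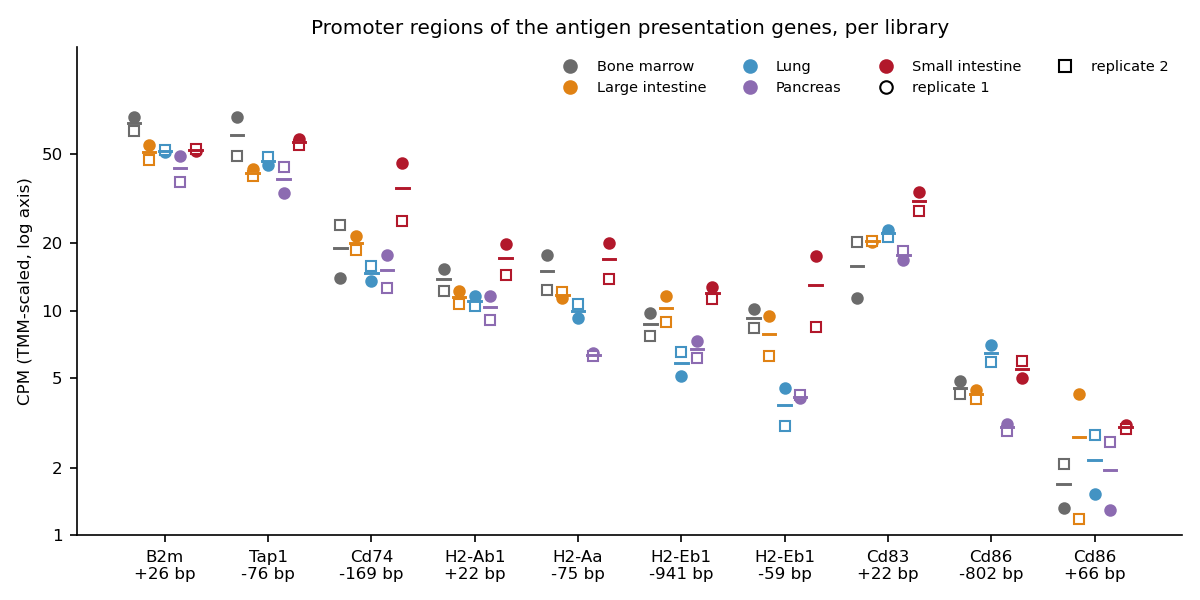
The 10 promoter regions of the member genes in TMM-scaled CPM on a log axis, named by gene and distance of the region's centre from the TSS; filled circles are replicate 1, open squares replicate 2, bars the mean of the 2 libraries of a tissue. The B2m and Tap1 libraries lay between 33.6 and 73.4 CPM, and the SI libraries lay highest at Cd74 (45.7 and 25.2 CPM) and Cd83 (33.8 and 27.8 CPM).

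Per kb of region, the promoters were ordered B2m at 85.0 CPM per kb over the 10 libraries, Tap1 at 77.0, Cd74 at 36.1, Cd83 at 35.6, H2-Ab1 at 24.4, H2-Aa at 22.7, H2-Eb1 -941 bp at 16.2, H2-Eb1 -59 bp at 14.8, Cd86 -802 bp at 8.58 and Cd86 +66 bp at 4.62. The class I promoters thus lay above the class II promoters, and Cd86 lay lowest. The level of Cd74 differed from that of Cd83 by less than the spread of either over the libraries, and so did H2-Ab1 from H2-Aa and the H2-Eb1 regions from each other.

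The study called an OCR intestinal when LI and SI were each higher than each of BM, lung and pancreas. That rule was not applied here. A contrast of means was taken instead, which a region can pass with LI or SI below another tissue. In the contrast of the mean of LI and SI minus the mean of BM, lung and pancreas, 15 of the 35 regions were higher in intestine (14.9% of all tested regions) and 0 were lower (8.51% of all). The members' median log2 fold change was 0.45, beside 0.0033 over all regions, and 30 of the 35 lay above 0 (50.4% of all). The 15 were at H2-Eb1 (4), H2-Aa (2), Cd74 (1), Nlrc5 (1), Cd83 (5) and Cd86 (2). None was at B2m, Tap1, H2-Ab1 or Ciita. Not all of the 15 had both LI and SI above each other tissue. At H2-Aa -75 bp, mean CPM was 15.1 in BM and 11.7 in LI. All 4 intestinal libraries lay above all 6 others at 8 regions (5.32% of all) and below them at 0 (2.58% of all). Without SI replicate 1 the count was 13 (13.1% of all), with a median of 0.46. The regions no longer called were the promoters of Cd74 and H2-Aa, and the H2-Aa call was also lost on leaving out other single libraries.

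**Figure D3:**
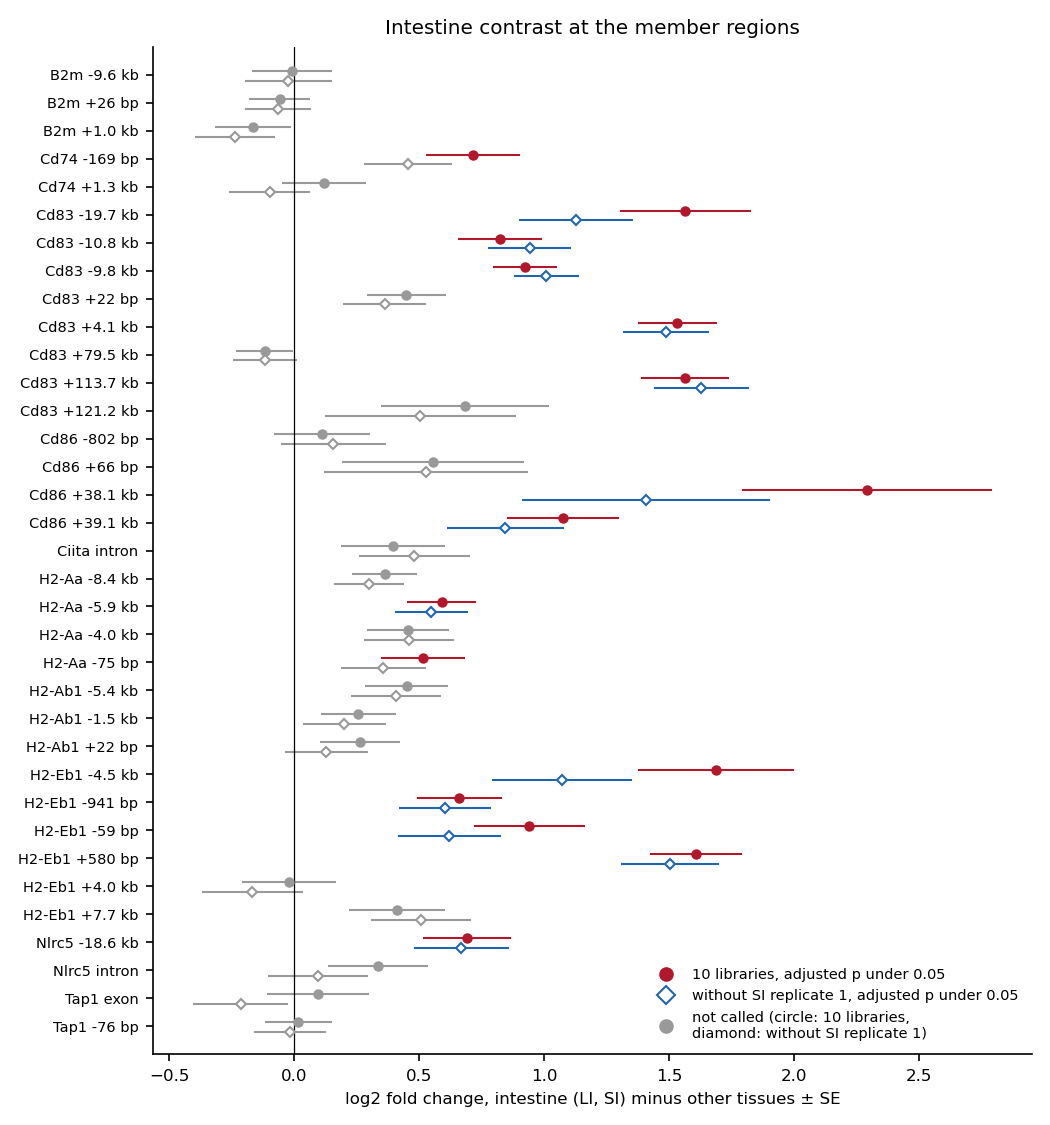
Log2 fold change ± SE of the intestinal tissues (LI, SI) minus the other 3 at each of the 35 regions, named by gene and distance from its TSS, or by intron or exon where the nearest TSS is another gene's; circles are the fit on 10 libraries, open diamonds the fit without SI replicate 1, and colour marks an adjusted p under 0.05. Called regions lie to the right of 0 at H2-Eb1, Cd83 and Cd86 in both fits, and Cd74 -169 bp fell from 0.71 to 0.45 without SI replicate 1.

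Among class II genes, H2-Eb1 held the region with the smallest p for a tissue effect. This intron region at +580 bp (chr17:34306188-34306707 as deposited) lay at 17.1 and 13.6 CPM in SI, 13.6 and 8.82 in LI, 8.07 and 6.04 in pancreas, 2.08 and 2.65 in lung and 4.50 and 4.83 in BM. The intestinal libraries were all above the rest, and the lung libraries were below all others. The intestine contrast was 1.60 ± 0.18 on the log2 scale (SE; edgeR adjusted p = 1.29e-05) and 1.50 ± 0.20 without SI replicate 1. LI exceeded lung by 2.22 ± 0.30 (edgeR adjusted p = 0.000287), SI exceeded lung by 2.69 ± 0.30 (edgeR adjusted p = 1.61e-05) and by 2.48 without SI replicate 1, and SI and LI differed by 0.47 ± 0.28 (edgeR adjusted p = 0.324). The region was commonly decreased in lung, meaning lower at an unadjusted p under 0.05 in each of the 4 comparisons with another tissue. That held for 1 member, where 1.72% of all regions met it.

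The H2-Eb1 promoter region at -59 bp, which holds the X1 to Y stretch printed above, lay at 17.6 and 8.50 CPM in SI, 9.50 and 6.30 in LI, 4.06 and 4.21 in pancreas, 4.55 and 3.06 in lung and 10.2 and 8.37 in BM. Lung and pancreas were below every library of the other 3 tissues. BM exceeded lung by 1.29 ± 0.35 and pancreas by 1.17 ± 0.36 on the log2 scale (edgeR adjusted p = 0.0145 and 0.0277), while BM and SI differed by 0.49 ± 0.33, less than the SI replicates did. SI exceeded lung by 1.78 ± 0.35 (edgeR adjusted p = 0.00158), and by 1.13 without SI replicate 1 (edgeR adjusted p = 0.026). The intestine contrast was 0.94 ± 0.22 (edgeR adjusted p = 0.00503), and 0.62 ± 0.21 without SI replicate 1. The upstream promoter region at -941 bp lay at 12.7 and 11.3 in SI, 11.7 and 8.91 in LI, 7.30 and 6.15 in pancreas, 5.14 and 6.54 in lung and 9.74 and 7.68 in BM, with an intestine contrast of 0.66 ± 0.17 (edgeR adjusted p = 0.00915), and 0.60 ± 0.18 without SI replicate 1.

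The upstream region of H2-Eb1 at -4517 bp lay at 17.1 and 4.70 CPM in SI, 5.84 and 3.87 in LI, 1.59 and 2.37 in pancreas, 1.45 and 2.32 in lung and 2.74 and 3.36 in BM. Its SI replicates differed 3.64-fold, and its value in SI replicate 2 lay between those of the LI libraries. It was a TS OCR of SI, the name for a tissue-specific OCR that is higher at an unadjusted p under 0.05 in all 4 comparisons. In SI 2 of the 35 members were TS OCRs, where 2.8% of all regions were, and without SI replicate 1 none was in any tissue. Its intestine contrast was 1.69 ± 0.31 (edgeR adjusted p = 0.000813), and 1.07 ± 0.28 without SI replicate 1. The remaining H2-Eb1 intron regions at +4044 and +7736 bp, at tissue means of 4.17 to 6.87 CPM, had no tissue effect called.

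At H2-Aa, the promoter region at -75 bp lay at 20.1 and 13.8 CPM in SI, 11.4 and 12.1 in LI, 6.48 and 6.26 in pancreas, 9.33 and 10.7 in lung and 17.8 and 12.4 in BM. The pancreas libraries were below all 8 others, and the region was the 1 member commonly decreased in pancreas (0.572% of all regions). BM exceeded pancreas by 1.24 ± 0.27 and SI exceeded it by 1.41 ± 0.27 on the log2 scale (edgeR adjusted p = 0.00399 and 0.00161), and SI by 1.08 without SI replicate 1 (edgeR adjusted p = 0.0135). Its call in the intestine contrast, 0.51 ± 0.17 (edgeR adjusted p = 0.0341), was kept in 10 of 18 alternatives. The call was lost on leaving out BM replicate 2, SI replicate 1, or either replicate of LI, lung or pancreas. Without SI replicate 1 the contrast was 0.35 ± 0.17. Over the alternatives that adjusted p ran from 0.00789 to 0.158.

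Between H2-Aa and H2-Eb1 lay 3 more H2-Aa regions with differing patterns. The region at -5873 bp (chr17:34293422-34293971) lay at 21.2 and 19.6 CPM in SI, 26.7 and 21.5 in LI, 20.8 and 20.6 in pancreas, 10.5 and 10.7 in lung and 16.3 and 12.7 in BM. Lung was lowest there and pancreas lay beside the intestinal tissues. LI exceeded lung by 1.18 ± 0.22 (edgeR adjusted p = 0.00267), and pancreas exceeded lung by 0.96 ± 0.22 (edgeR adjusted p = 0.0182). The region at -3960 bp, which holds a TGACG to ATTGG stretch, lay instead at 12.0 and 12.7 CPM in SI, 7.15 and 6.17 in LI, 5.06 and 4.10 in pancreas, 5.10 and 5.47 in lung and 11.2 and 12.4 in BM. The BM and SI libraries lay close together and above every other library. BM exceeded LI by 0.83 ± 0.25 and SI exceeded LI by 0.90 ± 0.25 on the log2 scale (edgeR adjusted p = 0.0203 and 0.0358), and BM and SI differed by 0.07 ± 0.24. Without SI replicate 1 the difference of SI from LI was also 0.90, with an edgeR adjusted p of 0.0633 that missed the threshold. SI exceeded lung by 1.23 in both fits, with SI replicate 1 and without it (edgeR adjusted p = 0.00211 and 0.00548). The region at -8360 bp lay at 34.8 and 30.2 CPM in SI, 20.2 and 24.9 in LI, 18.6 and 18.4 in pancreas, 17.8 and 19.9 in lung and 25.7 and 28.0 in BM, with an edgeR adjusted p of 0.0122 for the tissue effect.

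H2-Ab1 showed the BM and SI pattern at 1 of its 3 regions. The region at -1505 bp, with the AGCAAC to ATTGG stretch, lay at 15.6 and 13.9 CPM in SI, 7.76 and 6.99 in LI, 7.48 and 7.01 in pancreas, 7.88 and 7.92 in lung and 11.7 and 11.5 in BM. Neither BM nor SI overlapped LI, lung or pancreas. SI exceeded LI by 1.00 ± 0.24 and BM exceeded LI by 0.65 ± 0.24 on the log2 scale (edgeR adjusted p = 0.014 and 0.0454). Without SI replicate 1 the difference of SI from LI was 0.88 ± 0.27 and no longer called (edgeR adjusted p = 0.0506), and that of SI from pancreas was 0.90 ± 0.27 (edgeR adjusted p = 0.029). The promoter region at +22 bp, from 10.4 ± 1.8 CPM in pancreas to 17.2 ± 3.8 in SI (SD, n = 2), had an edgeR adjusted p of 0.101 for the tissue effect, and the region at -5405 bp one of 0.119.

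**Figure D4:**
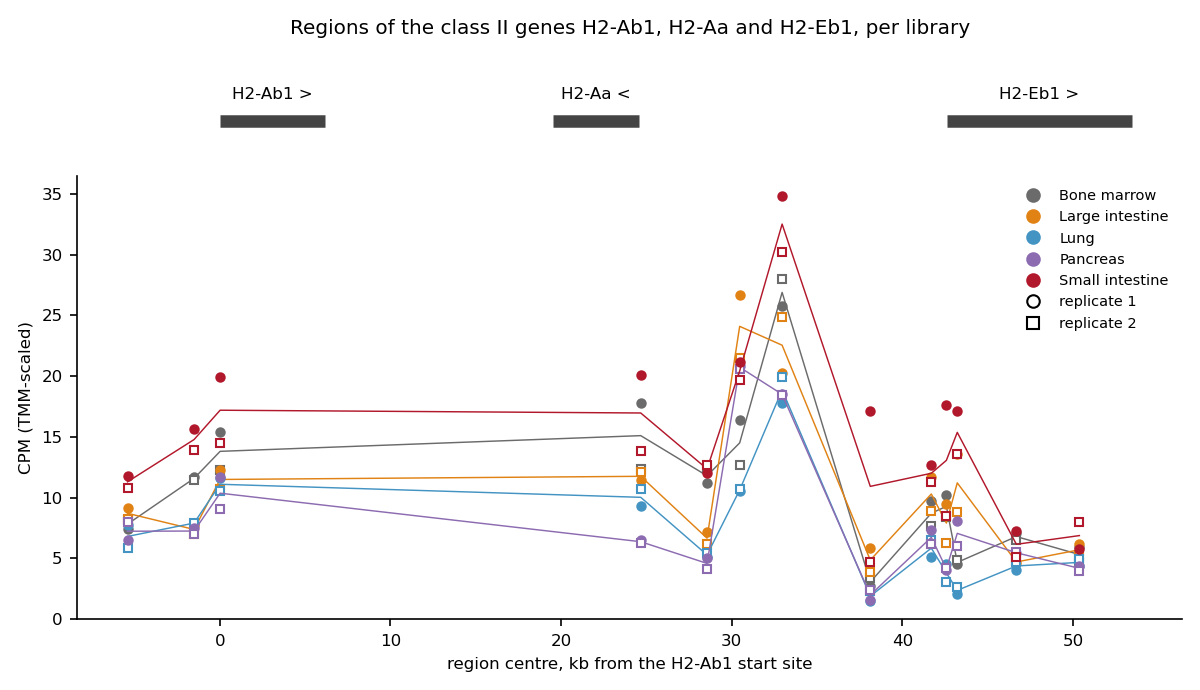
CPM (TMM-scaled) in each library at the 13 regions of H2-Ab1, H2-Aa and H2-Eb1 against the distance of the region's centre from the H2-Ab1 TSS in kb; gene bodies are drawn above with arrowheads for their direction, and lines join tissue means. SI and BM lie highest at H2-Ab1 -1505 bp and H2-Aa -3960 bp, whereas LI, pancreas and SI lie above BM and lung at H2-Aa -5873 bp and H2-Eb1 +580 bp.

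Cd74, whose product escorts class II molecules, had a promoter region at -169 bp with 45.7 and 25.2 CPM in SI, 21.4 and 18.7 in LI, 17.7 and 12.6 in pancreas, 13.6 and 15.8 in lung and 13.9 and 24.0 in BM. Both SI libraries were above all others, and SI replicate 2 exceeded the higher BM library by less than the BM libraries differed. It was the other TS OCR of SI. SI exceeded lung by 1.27 ± 0.30 and pancreas by 1.21 ± 0.30 on the log2 scale (edgeR adjusted p = 0.00558 and 0.00944), and without SI replicate 1 by 0.74 and 0.68 (edgeR adjusted p = 0.0939 and 0.124). The intestine contrast was 0.71 ± 0.19 (edgeR adjusted p = 0.011), and 0.45 ± 0.18 without SI replicate 1 (edgeR adjusted p = 0.077), the highest adjusted p over the alternatives, which began at 0.000809. The Cd74 intron region at +1308 bp lay at 27.9 and 16.7 CPM in SI, 11.3 and 14.4 in LI, 22.3 and 20.5 in pancreas, 13.2 and 14.2 in lung and 11.3 and 14.7 in BM, so that pancreas and SI were above the rest. Its tissue effect was called (edgeR adjusted p = 0.0253) and was lost in 6 of 18 alternatives. Its intestine contrast was 0.12 ± 0.17, and -0.10 ± 0.16 without SI replicate 1.

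Ciita was represented by 1 intron region, near its 3′ end and closer to the TSS of Dexi. It lay at 4.57 and 6.06 CPM in SI, 4.01 and 5.00 in LI, 2.41 and 3.45 in pancreas, 5.53 and 6.10 in lung and 3.23 and 2.99 in BM. Lung and SI overlapped, as did BM and pancreas. Its edgeR adjusted p of 0.05 for the tissue effect lay just inside the threshold, and the call was kept in 5 of 18 alternatives. None of the 10 pairs of tissues passed at an adjusted p under 0.05.

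B2m and Tap1 had no tissue effect called, and BM was their highest tissue at the promoter. The B2m promoter region at +26 bp, which lies in the first exon and also in an intron of Patl2, had 51.6 and 52.4 CPM in SI, 54.7 and 46.9 in LI, 49.0 and 37.6 in pancreas, 51.0 and 52.1 in lung and 73.4 and 63.5 in BM. The BM libraries were above all others. BM exceeded pancreas by 0.66 ± 0.19 on the log2 scale (edgeR adjusted p = 0.0193) and the other tissues by 0.40 to 0.43, and the region was a TS OCR of BM, the 1 member that was, where 4.5% of all regions were. That call was kept in 9 of 19 alternatives, and the edgeR adjusted p for the tissue effect was 0.0737. The B2m regions at -9556 and +1028 bp had no tissue effect called (edgeR adjusted p = 0.108 and 0.459).

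The Tap1 promoter region at -76 bp is also the promoter of Psmb9, which encodes an immunoproteasome subunit and is read in the opposite direction, and their parts in it cannot be told apart. It lay at 58.3 and 55.0 CPM in SI, 42.8 and 39.8 in LI, 33.6 and 43.7 in pancreas, 44.6 and 48.6 in lung and 72.8 and 48.9 in BM. BM exceeded pancreas by 0.66 ± 0.21 on the log2 scale (edgeR adjusted p = 0.0322), and the tissue effect had an edgeR adjusted p of 0.0549. The BM libraries differed more from each other than the LI, lung or SI libraries did. The Tap1 exon region near Psmb8, from 4.53 to 11.5 CPM over the libraries, had an edgeR adjusted p of 0.206.

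BM was low, not high, at Nlrc5. Its upstream region at -18559 bp (chr8:94453922-94454486) lay at 7.13 and 6.86 CPM in SI, 10.8 and 11.3 in LI, 5.83 and 9.28 in pancreas, 10.9 and 10.3 in lung and 2.06 and 2.02 in BM. BM was far below every other library. Over BM, LI was higher by 2.43 ± 0.30, lung was higher by 2.37 ± 0.29, pancreas was higher by 1.87 ± 0.30 and SI was higher by 1.77 ± 0.29 on the log2 scale (edgeR adjusted p = 2.69e-05, 4.12e-05, 0.000373 and 0.000377). LI and lung differed by 0.06 ± 0.26, and none of the pairs among LI, lung, pancreas and SI passed. The region was commonly decreased in BM in all 19 alternatives. Its intestine contrast of 0.69 ± 0.18 (edgeR adjusted p = 0.00845) averages BM with lung, which lay beside LI. The Nlrc5 intron region, between 5.48 and 12.4 CPM, had an edgeR adjusted p of 0.345.

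Cd83 held the most called regions, 6 of its 8 for a tissue effect, beside 4 of 6 at H2-Eb1 and 4 of 4 at H2-Aa. Its intron region at +4101 bp (chr13:43788918-43789509) lay at 14.3 and 13.1 CPM in SI, 11.7 and 12.0 in LI, 4.77 and 4.42 in pancreas, 8.19 and 7.54 in lung and 2.45 and 2.25 in BM. The tissues did not overlap and ran from BM through pancreas, lung and LI to SI, with the steps from pancreas to lung (edgeR adjusted p = 0.0888), from lung to LI (0.132) and from LI to SI (0.628) not past the threshold. Over BM, SI was higher by 2.54 ± 0.26, LI was higher by 2.33 ± 0.27, lung was higher by 1.74 ± 0.26 and pancreas was higher by 0.97 ± 0.27 on the log2 scale (edgeR adjusted p = 9.51e-06, 1.6e-05, 0.000207 and 0.0175). The region was commonly decreased in BM in all 19 alternatives. Its intestine contrast was 1.53 ± 0.16 (edgeR adjusted p = 5.03e-06), and 1.49 without SI replicate 1.

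The upstream region of Cd83 at -9847 bp lay at 46.0 and 61.8 CPM in SI, 46.5 and 54.0 in LI, 32.3 and 26.3 in pancreas, 35.0 and 40.3 in lung and 18.4 and 19.2 in BM. BM was again below all others, and the intestinal libraries were all above the rest. LI exceeded BM by 1.42 ± 0.21 and pancreas exceeded BM by 0.64 ± 0.21 on the log2 scale (edgeR adjusted p = 0.00013 and 0.0328). It was the third member commonly decreased in BM, where 6.63% of all regions were. That call was kept in 16 of 19 alternatives. It was lost under the GC and width correction, with and without the replicate block, and on leaving out pancreas replicate 1. The neighbouring region at -10751 bp lay at 9.34 and 14.0 CPM in SI, 13.6 and 15.2 in LI, 5.65 and 5.72 in pancreas, 11.3 and 15.1 in lung and 5.29 and 5.25 in BM, so that there pancreas was low with BM. LI exceeded pancreas by 1.34 ± 0.28 and lung exceeded pancreas by 1.22 ± 0.27 (edgeR adjusted p = 0.0137 and 0.0163).

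At +113717 bp, the farthest called region of Cd83 and in intergenic sequence, the level was 10.4 and 13.1 CPM in SI, 9.85 and 10.3 in LI, 4.95 and 4.85 in pancreas, 3.61 and 2.65 in lung and 2.99 and 3.54 in BM. The intestinal libraries formed a group at or above 9.85 CPM and the rest a group at or below 4.95. The intestine contrast was 1.56 ± 0.18 (edgeR adjusted p = 1.16e-05), and 1.63 without SI replicate 1. LI exceeded lung by 1.69 ± 0.28 there (edgeR adjusted p = 0.00129), whereas at +4101 bp LI and lung differed by 0.59 ± 0.24. The region at -19710 bp lay at 24.6 and 9.37 CPM in SI, 11.7 and 7.78 in LI and 2.65 to 6.47 in the other libraries, with an intestine contrast of 1.56 ± 0.26 (edgeR adjusted p = 0.000352) and 1.13 without SI replicate 1.

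The Cd83 promoter region at +22 bp had a smaller intestine contrast than the called distal regions, which were picked by that contrast, and the difference was not tested. It lay at 33.8 and 27.8 CPM in SI, 20.2 and 20.5 in LI, 16.8 and 18.6 in pancreas, 22.8 and 21.4 in lung and 11.4 and 20.3 in BM. The SI libraries were above all others. SI exceeded BM by 0.96 ± 0.25 on the log2 scale (edgeR adjusted p = 0.00905), and by 0.78 ± 0.27 without SI replicate 1. The tissue effect (edgeR adjusted p = 0.0282) was kept in 12 of 18 alternatives. It was lost on leaving out SI replicate 1, LI replicate 2, or either replicate of lung or pancreas. The intestine contrast of 0.45 ± 0.16 stood at an adjusted p of 0.0501 by edgeR, just outside the threshold. The region at +79539 bp, at 40.4 to 62.3 CPM, and that at +121235 bp, at 1.18 to 4.62 CPM, had no tissue effect called.

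**Figure D5:**
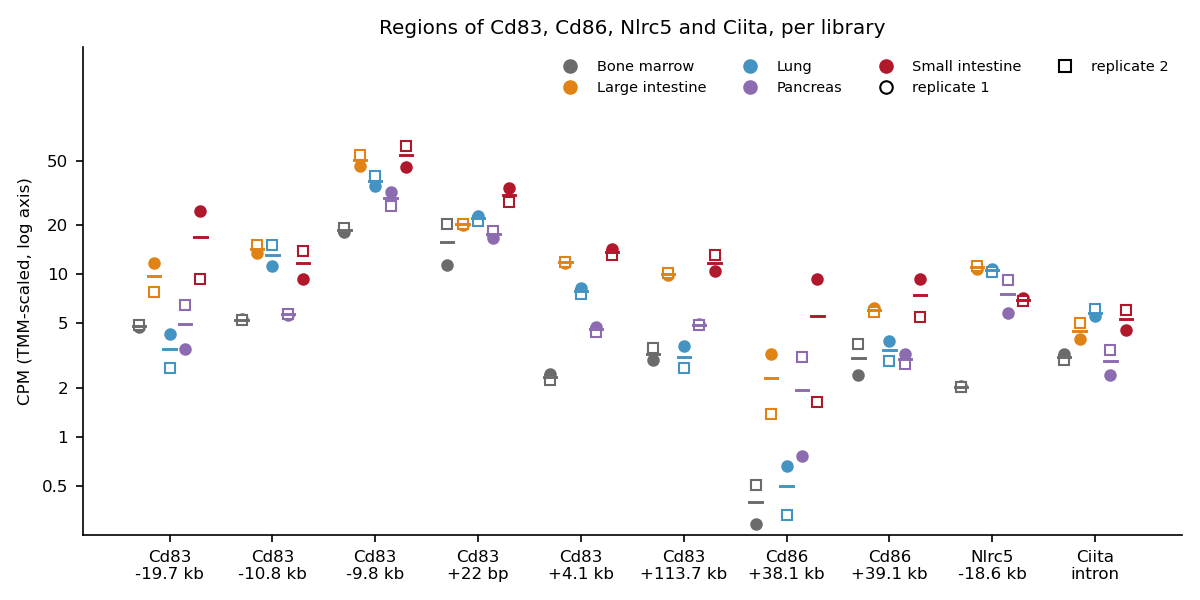
Regions of Cd83, Cd86, Nlrc5 and Ciita in TMM-scaled CPM on a log axis, named by distance from the TSS; filled circles are replicate 1, open squares replicate 2, bars the mean of the 2 libraries. BM lies lowest at Cd83 -9847 bp, Cd83 +4101 bp and Nlrc5 -18559 bp, the intestinal tissues lie apart at Cd83 +113717 bp, and the SI replicates at Cd86 +38140 bp differ from 9.44 to 1.64 CPM.

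Cd86 had tissue effects called at both intron regions and at neither promoter region. The intron region at +39101 bp lay at 9.39 and 5.47 CPM in SI, 6.19 and 5.86 in LI, 3.24 and 2.80 in pancreas, 3.88 and 2.95 in lung and 2.40 and 3.73 in BM. The intestinal libraries were all above the rest, with a contrast of 1.07 ± 0.22 (edgeR adjusted p = 0.00199), and 0.84 ± 0.23 without SI replicate 1 (edgeR adjusted p = 0.0132, the highest over the alternatives, which began at 0.000445). The neighbouring region at +38140 bp held few reads, from 6 in BM replicate 1 to 196 in SI replicate 1. It lay at 9.44 and 1.64 CPM in SI, 3.23 and 1.39 in LI, 0.766 and 3.13 in pancreas, 0.666 and 0.331 in lung and 0.294 and 0.506 in BM. SI replicate 2 lay inside the range of LI and of pancreas. The contrast of 2.29 ± 0.50 (edgeR adjusted p = 0.00294) became 1.41 ± 0.50 without SI replicate 1 (edgeR adjusted p = 0.0495, again the highest of a range from 7.33e-05). The promoter region at -802 bp lay at 5.01 and 5.96 CPM in SI, 4.45 and 4.04 in LI, 3.12 and 2.91 in pancreas, 7.06 and 5.93 in lung and 4.84 and 4.23 in BM, where lung exceeded pancreas by 1.10 ± 0.31 (edgeR adjusted p = 0.0444). The promoter region at +66 bp, at 1.17 to 4.27 CPM, had an edgeR adjusted p of 0.654.

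Across the members, TS OCRs were called at 3 regions in all (11.3% of all regions were TS OCRs of some tissue). None was a TS OCR of LI (1.3% of all), lung (1.3%) or pancreas (1.43%). Commonly decreased regions numbered 5 (12.7% of all), with none in LI (0.132% of all) or SI (3.59%). Neither count of members stood far from the share of all regions.

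By pair of tissues, SI exceeded the others most often, at an edgeR adjusted p under 0.05. SI was above lung at 16 member regions (11.1% of all), above pancreas at 16 (8.45%), above BM at 14 (15.1%) and above LI at 2 (1.53%). In the opposite direction 0 members were called in each of these pairs, where lung was above SI at 9.86% of all regions, pancreas at 12%, BM at 10.7% and LI at 6.9%. Without SI replicate 1 the counts were 8 above lung (7.53% of all), 7 above pancreas (6.27%), 7 above BM (11.5%) and 0 above LI (1.9%).

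LI was above BM at 9 members (18.3% of all), above lung at 4 (8.18%) and above pancreas at 3 (2.01%). The 4 above lung were H2-Eb1 +580 bp, H2-Aa -5873 bp and the Cd83 regions at -19710 and +113717 bp, and the 3 above pancreas were the Cd83 regions at -10751, -9847 and +4101 bp. No member was higher in lung than in LI (2.72% of all) or in pancreas than in LI (1.25%). BM was above LI at 2 (12.6%), which were H2-Aa -3960 bp and H2-Ab1 -1505 bp, above lung at 3 (7.56%) and above pancreas at 5 (9.89%). Lung was above BM at 4 (11.5%) and pancreas above BM at 3 (14.3%), all at Cd83 or Nlrc5. Lung was above pancreas at 2 (1.62%) and pancreas above lung at 2 (4.2%), the latter being H2-Aa -5873 bp and H2-Eb1 +580 bp. These pairs share libraries and are not independent of each other.

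Of 48 other genes of antigen processing, class I and class II presentation and costimulation, 32 had a promoter region, the one of Psmb9 being that of Tap1. A tissue effect was called at 17 of the 32 (53.1%), where 44.2% of all regions and 30.9% of promoter regions were. In the intestine contrast 5 were higher (15.6%, close to the 14.9% of all regions) and 0 lower (8.51% of all). The shares over promoter regions alone were not counted. The median was -0.01, beside -0.10 over all promoter regions and 0.0033 over all regions. The 5 were Cd80 at 1.64, H2-DMb2 at 1.21, Cd40 at 0.97, Tap2 at 0.67 and Lgmn at 0.47 on the log2 scale. Without SI replicate 1 the calls at Tap2 (0.68) and Lgmn (0.50) were kept, and those at Cd80 (1.02), H2-DMb2 (0.75) and Cd40 (0.54) were lost. Cd80, the companion ligand of CD86, lay at 8.43 and 2.30 CPM in SI, 3.31 and 2.09 in LI and 0.589 and 1.19 in pancreas. It lay at 1.69 and 0.966 in lung and 1.57 and 1.56 in BM. Its SI replicates showed a wide gap, as at the Ebf1 and Spi1 promoters and unlike those of Cd68 and Cd79b. Cd40, the receptor for CD40 ligand, lay at 11.6 and 4.46 CPM in SI, 7.76 and 5.82 in LI, 4.48 and 6.69 in pancreas, 4.63 and 4.91 in lung and 2.54 and 1.43 in BM.

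Tap2, which pairs with Tap1 in the peptide transporter, lay at 23 and 24.7 CPM in SI, 22.8 and 23.8 in LI, 16.2 and 14.6 in pancreas, 13.2 and 18.4 in lung and 13.9 and 12.7 in BM, so that the intestinal libraries did not overlap the rest and the SI replicates lay close together. The promoter region of H2-DMa, part of the class II peptide exchanger, is also that of Brd2. It lay at 43.6 and 38.7 CPM in SI and 17.9 to 30.3 in LI, lung and pancreas, while the BM libraries differed, at 62.4 and 27.1. The class I heavy chain genes H2-K1 and H2-Q7 lay highest in BM or SI, with H2-K1 at 113 and 83.0 CPM in BM and 57.8 and 81.5 in SI against 49.3 to 65.5 elsewhere, and H2-Q7 at 90.3 and 75.1 in BM and 77.7 and 93.3 in SI against 44.3 to 64.8 elsewhere. Of the 32 promoters, 3 were TS OCRs of BM (4.5% of all regions) and 1 of SI (2.8% of all). These shares are over regions of all classes, and the study found many of its BM TS OCRs at promoters.

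The promoter regions most like the H2-Eb1 -59 bp region were found by Pearson's r of log2 CPM over the 10 libraries among 8620 promoter regions with a mean of at least 5 CPM. They were those of Flt3 (r = 0.948), Fam43a (0.941), Mef2b (0.940), Wdr83 (0.933) and Tspan15 (0.928), as a description. Fam43a and Wdr83 had no tissue effect called (edgeR adjusted p = 0.418 and 0.235). The r also follows differences between replicates. SI replicate 1 lay above SI replicate 2 at both Flt3 (21.7 and 9.82 CPM) and H2-Eb1 -59 bp (17.6 and 8.50). Flt3, a member of the dendritic cell marker list, had mean CPM of 15.7 in SI, 11.9 in BM, 8.84 in LI, 4.42 in lung and 4.07 in pancreas, an order of tissues that H2-Eb1 -59 bp had apart from lung and pancreas, which lay at 3.81 and 4.13.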

How the data were processed

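ATAC-seq libraries of sorted ILC2s, 2 per tissue, were analysed from the table of raw read counts per region that the authors deposited, called on mm10. The submitters' processing notes name FastQC 0.11.9, Bowtie2 2.2.9, SAMtools 1.8, MACS2 2.1.1 and DESeq2; per the methods, MACS2 peaks found in both replicates were merged over the tissues with HOMER and reads counted by bedtools, so a region open in no tissue's peak set is missing, and duplicate removal and the Tn5 shift are not given in the sources used here. Counting error relative to the count is smallest at the regions with most reads. Replicates differed by 12.8 to 56.0 times sampling noise (chi-square per degree of freedom), so each library was kept as its own replicate.

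Regions were annotated with curated RefSeq transcripts of GRCm38.p6. edgeR 4.0.16 (R 4.3.3) was fitted to all 10 libraries with TMM scaling and tissue as the only term, and p-values were adjusted (Benjamini-Hochberg) over the 49981 regions with at least 1 count; 58 had none. The study tested pairs with DESeq2, run here (1.42.0) as an alternative. Fits were checked on simulated counts. CPM are TMM-scaled. Named genes were the 10 members and, of other lists, up to 6 promoters by p; of each member, its promoters, the region with the smallest p and every called region were given per library. The members and lists were chosen with earlier results of these data known. Alternatives covered scaling, filters, DESeq2, a replicate block, GC and width correction, nearest TSS alone and leaving out each library. Coordinates are as the table gives them.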

Additional observations from a re-analysis of the deposited data

How the results depend on the processing

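The 0 regions lower in intestine stayed 0 under every alternative run, the count higher in intestine ran from 13 to 17, and that with a tissue effect from 16 to 25. TS OCRs depended most on the settings: the 3 became 8 with scaling by library size alone, 5 with a GC and width correction, 5 when that correction was combined with the replicate block, and 0 when an adjusted p was asked for in each comparison, a stricter criterion by construction. Leaving out 1 library gave 0 (without LI replicate 2 or SI replicate 1) to 7 (without SI replicate 2) TS OCRs, and 3 (without Pancreas replicate 1) to 7 (without BM replicate 2) commonly decreased regions; the cause was not tested. Scaling by library size alone moved the median of all regions by up to 0.251 on the log2 scale (lung minus pancreas) and the intestine contrast by 0.0239. The replicate block gave 20 regions with a tissue effect, 2 TS OCRs, 5 commonly decreased regions, 16 higher and 0 lower in intestine. The numbers mark no shared animal or day in the labels, and differences between replicates 1 and 2 correlated at 0.125 to 0.196 for BM with LI and among LI, lung and SI, but at -0.218 to -0.0995 for pancreas with each other tissue, so not every pair was positive and the numbers were not taken as a pairing. DESeq2 on 10 libraries gave 23, 3, 5, 15 and 0 for these counts.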
